A study of Mus musculus with 24 samples.

Results

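The ubiquitin-conjugating enzymes, or E2 enzymes, were followed in the liver of young and adult mice after partial hepatic ischemia, a procedure that stops blood flow to some lobes. Members were the genes on the arrays whose symbol begins with Ube2, a rule that uses the name alone. It gave 28 protein-coding genes, each with 1 probe set, of 14351 genes with a name. The reference annotation lists 42 symbols of this form. The other 14, of which 3 are pseudogenes, were matched by no probe set and are not analysed here; they include Ube2h, Ube2j2, Ube2v1 and Ube2w.

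RNA from the median and left lobes was hybridised to 24 Affymetrix 3' expression arrays, with 3 arrays in each of 8 groups. The young animals were aged 4 to 5 weeks and the adults 12 to 14 months, and either age had a sham operation or 30, 60 or 90 min of ischemia. The labels name no strain, sex or genetic change. In the titles each time is followed by a 0 whose meaning is not given, so it is not stated whether blood flow was restored before sampling.

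A deposited value is a ratio whose mean over the 3 sham arrays of that age is 1 for every gene. Array brightness is not kept. Levels cannot be compared between genes or between the sham livers of both ages, and liver markers cannot be checked for their presence. A log2 change of -0.5 stands for a ratio of about 0.7.

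Attachment of ubiquitin to a protein runs through 3 classes of enzyme. An E1 enzyme activates ubiquitin, an E2 enzyme carries it on a cysteine, and an E3 ligase brings the loaded E2 enzyme to the substrate. The E2 enzyme often sets which kind of chain is built, and so whether the substrate goes to the proteasome, to DNA repair or to signalling. Some E2 enzymes carry relatives of ubiquitin in its place, such as SUMO, NEDD8 or the interferon-induced ISG15.

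A few arrays stood apart in the E2 genes. Adult 30 min replicate 3 had a median log2 ratio of 0.02 over the 28 genes, whereas replicates 1 and 2 were at -0.36 and -0.32. The 3 young sham arrays were spread over medians of -0.16, 0.00 and 0.16, whereas the adult sham arrays lay at 0.02, 0.00 and 0.01. In all 14351 genes the array medians ran from -0.09 to 0.04. The p-values measure the spread between the arrays within groups, pooled over all 8 groups. Labels do not tie an array to a named animal, so that spread may be partly technical.

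After 60 min in adult liver, 12 of the 28 E2 genes fell and 0 rose. They were Ube2b, Ube2d2a, Ube2d3, Ube2e2, Ube2e3, Ube2f, Ube2g1, Ube2g2, Ube2k, Ube2l3, Ube2l6 and Ube2v2. The falls were of similar size, from -0.77 for Ube2l6 to -0.41 for Ube2d2a on the log2 scale. In all 12 the 3 ischemia arrays lay below the 3 sham arrays, which a call from these same arrays makes likely. Over all members this held in 15 of 28, where 25.9% of all genes were lower without overlap. The median change of the 28 E2 genes was -0.42, against -0.05 for all genes, and 23 of the 28 were below 0, where 58.7% of all genes were.

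These 12 genes are 42.9% of the members. Of all genes tested, 11.9% passed in this comparison, 9.78% passed as lower and 2.15% as higher, in limma at an adjusted p under 0.05. Adjusted p-values of the 12 lay between 0.0282 and 0.0449. Over all genes 1403 were lower and 309 higher, and 848 and 477 after median centring of the arrays, when 8 E2 genes were lower. The call rested on single arrays, and so did that of the whole table. Leaving out sham replicate 1 or 3 of the adults gave 0 E2 genes, and so did leaving out replicate 2 or 3 of adult 60 min. Of all genes 0.0976%, 0.0279%, 0.16% and 0.00697% passed in these fits, in the same order. Leaving out adult sham replicate 2 gave 6, where 4.1% of all genes passed. Leaving out replicate 1 of adult 60 min gave 10, where 15.2% of all genes passed. Of these 10, 9 were lower and Ube2o was higher. Quantile normalization left 0 E2 genes and 0 of all genes. A fit of the adult arrays alone left 4, Ube2b, Ube2d3, Ube2l3 and Ube2v2, where 4.09% of all genes passed. Ube2f and Ube2l6 passed in 0 of these 6 fits with an array left out. The changes themselves moved less: with any 1 of these 6 arrays left out the 12 genes stayed between -0.82 and -0.31. As their groups did not overlap, none of the 12 could rise above 0 this way. As the arrays measured whole tissue, fewer cells of a type and less RNA per cell cannot be told apart.

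**Figure D1:**
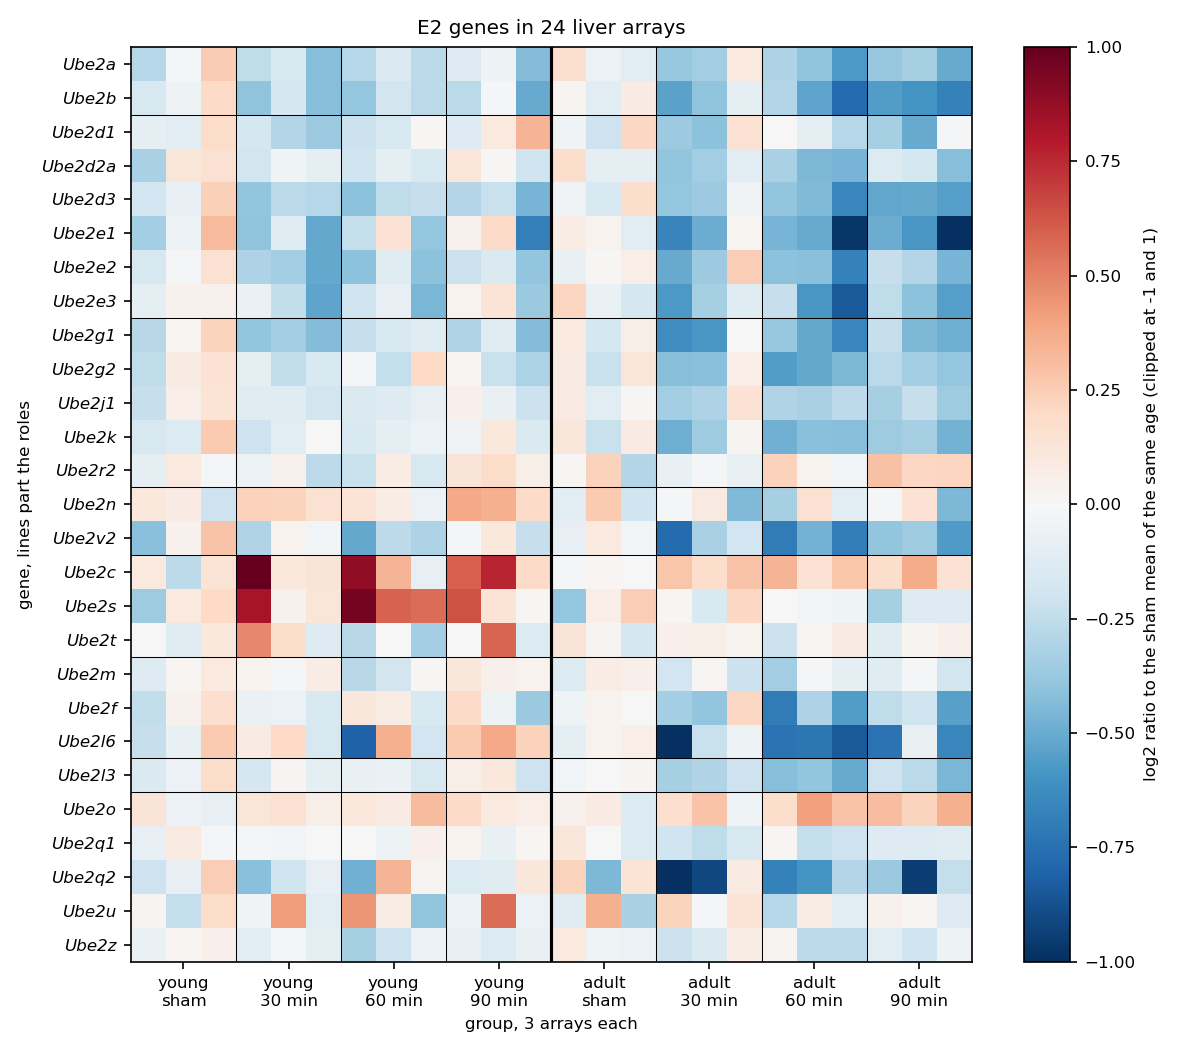
Log2 ratio of 27 of the 28 E2 genes (rows, ordered by role) in each of the 24 arrays (columns, 3 per group), relative to the sham mean of the same age and clipped at -1 and 1. Blue is below sham and red above. The columns of adult 60 and 90 min are mostly blue, adult 30 min replicate 3 is near the sham arrays, and Ube2c and Ube2s are red in several young arrays.

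Ube2a and Ube2b are the mouse homologs of yeast Rad6. They attach ubiquitin to a histone at transcribed genes, to the replication clamp PCNA after DNA damage, and to proteins with destabilising N termini. Ube2b was at 1.02, 0.925 and 1.06 in the adult sham arrays, at 0.691, 0.759 and 0.935 after 30 min, at 0.815, 0.695 and 0.584 after 60 min and at 0.680, 0.661 and 0.628 after 90 min. All 6 arrays of 60 and 90 min lay below the lowest sham array, and the 90 min arrays were close together. Its change was -0.53 ± 0.14 (SE, n = 3 per group; adjusted p = 0.0310) at 60 min and -0.61 ± 0.14 (adjusted p = 0.0211) at 90 min. In young liver Ube2b was at 0.897, 0.963 and 1.14 in sham arrays, at 0.756, 0.888 and 0.745 after 30 min, at 0.764, 0.880 and 0.829 after 60 min and at 0.828, 0.988 and 0.707 after 90 min. The young arrays of 30 and 60 min were also below all young sham arrays, but those of 90 min overlapped them, and no young comparison passed. Ube2a, the near twin of Ube2b, had ratios of 0.808, 0.755 and 0.671 at 60 min against 1.12, 0.959 and 0.922 in adult sham liver. The groups did not overlap, and the change of -0.42 ± 0.14 missed the threshold (adjusted p = 0.0520).

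The Ube2d and Ube2e enzymes work with a wide range of E3 ligases and often attach the first ubiquitin. Of the 6 measured, 4 fell at 60 min in adults, and the median of the 6 was -0.49. Ube2d3 was at 0.976, 0.897 and 1.13 in adult sham arrays, at 0.764, 0.776 and 0.979 after 30 min, at 0.761, 0.738 and 0.638 after 60 min and at 0.697, 0.701 and 0.684 after 90 min. It was below sham in every array of the longer times, and its 90 min arrays had a mean of 0.694 ± 0.00900 (SD, n = 3). The change was -0.49 ± 0.12 (adjusted p = 0.0295) at 60 min and -0.52 ± 0.12 (adjusted p = 0.0211) at 90 min. Young Ube2d3 was at 0.875, 0.947 and 1.18 in sham arrays, at 0.760, 0.829 and 0.820 after 30 min, at 0.751, 0.841 and 0.854 after 60 min and at 0.815, 0.859 and 0.725 after 90 min. It was the one E2 gene in which all 9 young ischemia arrays lay below all 3 young sham arrays. The young changes of -0.31, -0.29 and -0.31 did not pass (adjusted p = 0.441, 0.439 and 0.361).

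Ube2d2a was at 1.13, 0.934 and 0.934 in adult sham arrays, at 0.759, 0.788 and 0.926 after 30 min, at 0.799, 0.732 and 0.725 after 60 min and at 0.910, 0.883 and 0.743 after 90 min. All 9 ischemia arrays were below sham, and the mean was lowest at 60 min, though the arrays of the 3 times overlapped. The change at 60 min was -0.41 ± 0.12 (adjusted p = 0.0403), whereas -0.24 at 90 min did not pass (adjusted p = 0.197). Ube2d1, the third of this class on the arrays, overlapped sham at every adult time and was at -0.12 ± 0.16 at 60 min.

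Among the Ube2e genes, Ube2e2 was at 0.948, 1.01 and 1.05 in adult sham arrays, at 0.706, 0.775 and 1.19 after 30 min, at 0.752, 0.747 and 0.625 after 60 min and at 0.850, 0.815 and 0.725 after 90 min. Apart from the third 30 min array, every ischemia array was below sham. It fell by 0.50 ± 0.15 at 60 min (adjusted p = 0.0374). Ube2e3 was at 1.16, 0.956 and 0.886 in adult sham arrays, at 0.671, 0.793 and 0.920 after 30 min, at 0.852, 0.669 and 0.557 after 60 min and at 0.840, 0.751 and 0.681 after 90 min. The 60 min arrays of Ube2e3 were widely spread, and the highest of them lay just under the lowest sham array. Its fall was 0.54 ± 0.17 (adjusted p = 0.0415). Ube2e1 had a larger change than any of these, at ratios of 0.726, 0.705 and 0.508 after 60 min and 0.710, 0.667 and 0.503 after 90 min against 1.05, 1.02 and 0.925 in adult sham liver. The groups were apart, but the spread of this gene over all 8 groups was wide, and changes of -0.65 ± 0.22 and -0.69 ± 0.22 missed the threshold (adjusted p = 0.0603 and 0.0631).

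Enzymes that build the chains read by the proteasome, some of them at the endoplasmic reticulum, made up 5 members, of which 3 fell at 60 min in adults. Ube2g2, a soluble enzyme recruited to the endoplasmic reticulum for the degradation of misfolded proteins, was at 1.06, 0.855 and 1.09 in adult sham arrays, at 0.743, 0.748 and 1.05 after 30 min, at 0.678, 0.702 and 0.733 after 60 min and at 0.830, 0.791 and 0.767 after 90 min. The 60 min arrays were the lowest, with no overlap with those of 30 or 90 min. The change was -0.50 ± 0.14 (adjusted p = 0.0350), and at 90 min it was -0.32 (adjusted p = 0.136). Ube2g1, which extends chains on substrates of cullin ligases, was at 1.07, 0.884 and 1.04 in adult sham arrays, at 0.650, 0.668 and 1.00 after 30 min, at 0.769, 0.701 and 0.638 after 60 min and at 0.852, 0.731 and 0.711 after 90 min. Replicates 1 and 2 of 30 min were as low as the 60 min arrays, whereas replicate 3 was within sham. It fell by 0.51 ± 0.14 at 60 min (adjusted p = 0.0359).

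Ube2k, which can build such chains by itself, was at 1.08, 0.856 and 1.06 in adult sham arrays, at 0.714, 0.784 and 1.02 after 30 min, at 0.719, 0.749 and 0.743 after 60 min and at 0.783, 0.792 and 0.720 after 90 min. The 60 min arrays were tightly grouped, with a mean of 0.737 ± 0.0160 (SD, n = 3). The change was -0.43 ± 0.13 (adjusted p = 0.0373) at 60 min and -0.38 ± 0.13 (adjusted p = 0.0661) at 90 min. Ube2j1, which is anchored in the endoplasmic reticulum membrane, did not overlap sham at 60 min, at -0.30 ± 0.11 (adjusted p = 0.0768). Ube2r2, a partner of the cullin ligases related to Cdc34, was not low, at 0.09 ± 0.11 at 60 min and 0.25 ± 0.11 at 90 min (adjusted p = 0.589 and 0.150).

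Ube2n and its catalytically inactive partner Ube2v2 form a dimer whose chains serve DNA repair rather than degradation. Ube2v2 was at 0.947, 1.07 and 0.984 in adult sham arrays, at 0.588, 0.797 and 0.876 after 30 min, at 0.616, 0.721 and 0.620 after 60 min and at 0.761, 0.783 and 0.677 after 90 min. All 9 ischemia arrays were below sham. It fell by 0.62 ± 0.16 at 60 min (adjusted p = 0.0305), and its changes of -0.43 at 30 and at 90 min did not pass (adjusted p = 0.461 and 0.0849). Ube2n overlapped sham at every adult time, with a change of -0.08 ± 0.16 at 60 min and a 95% confidence interval from -0.41 to 0.25. The difference between the partners was not tested.

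The enzymes for relatives of ubiquitin were mixed. Ube2l6, the E2 enzyme of ISG15, was at 0.932, 1.02 and 1.04 in adult sham arrays, at 0.494, 0.859 and 0.964 after 30 min, at 0.599, 0.607 and 0.558 after 60 min and at 0.598, 0.948 and 0.638 after 90 min. The 60 min arrays were low together, whereas 30 and 90 min each held 1 array within the range of sham. The fall of 0.77 ± 0.24 at 60 min was the largest of the 28 genes and also the nearest to the threshold of the 12 (adjusted p = 0.0449), as its spread over the 8 groups was wide. In young liver Ube2l6 was at 0.853, 0.949 and 1.20 in sham arrays, at 1.06, 1.15 and 0.897 after 30 min, at 0.570, 1.28 and 0.875 after 60 min and at 1.20, 1.30 and 1.17 after 90 min. No young time was apart from sham, and the single low value was replicate 1 of 60 min. Interferon-stimulated genes, which include the gene of ISG15 itself, had a median change of -0.17 at adult 60 min with 8 of 9 below 0 and 0 passing. Their mean ratio per array was 0.830 to 0.930 there, against 0.955 to 1.02 in adult sham liver, and their part in the Ube2l6 result was not tested.

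Ube2f and Ube2m both carry NEDD8, the activator of cullin ligases. Ube2f was at 0.969, 1.03 and 1.00 in adult sham arrays, at 0.790, 0.759 and 1.16 after 30 min, at 0.617, 0.807 and 0.680 after 60 min and at 0.838, 0.873 and 0.687 after 90 min. It was below sham in all arrays of the longer times and above sham in 30 min replicate 3. The fall at 60 min was 0.52 ± 0.16 (adjusted p = 0.0403). Ube2m overlapped sham at each adult time and was at -0.15 ± 0.10 at 60 min.

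Ube2l3, which transfers ubiquitin only to ligases with a cysteine of their own, such as parkin and the HECT family, had the lowest adjusted p at 60 min. It was at 0.980, 1.00 and 1.02 in adult sham arrays, at 0.793, 0.811 and 0.868 after 30 min, at 0.745, 0.762 and 0.706 after 60 min and at 0.865, 0.831 and 0.727 after 90 min. The sham arrays were close together, and all 9 ischemia arrays lay below them. The change was -0.28 ± 0.10 at 30 min (adjusted p = 0.428), -0.44 ± 0.10 at 60 min (adjusted p = 0.0282) and -0.31 ± 0.10 at 90 min (adjusted p = 0.0504). In young liver Ube2l3 was at 0.905, 0.962 and 1.13 in sham arrays, at 0.889, 1.02 and 0.940 after 30 min, at 0.951, 0.956 and 0.893 after 60 min and at 1.04, 1.07 and 0.865 after 90 min. The young groups overlapped at every time, and the changes lay between -0.09 and -0.01.

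**Figure D2:**
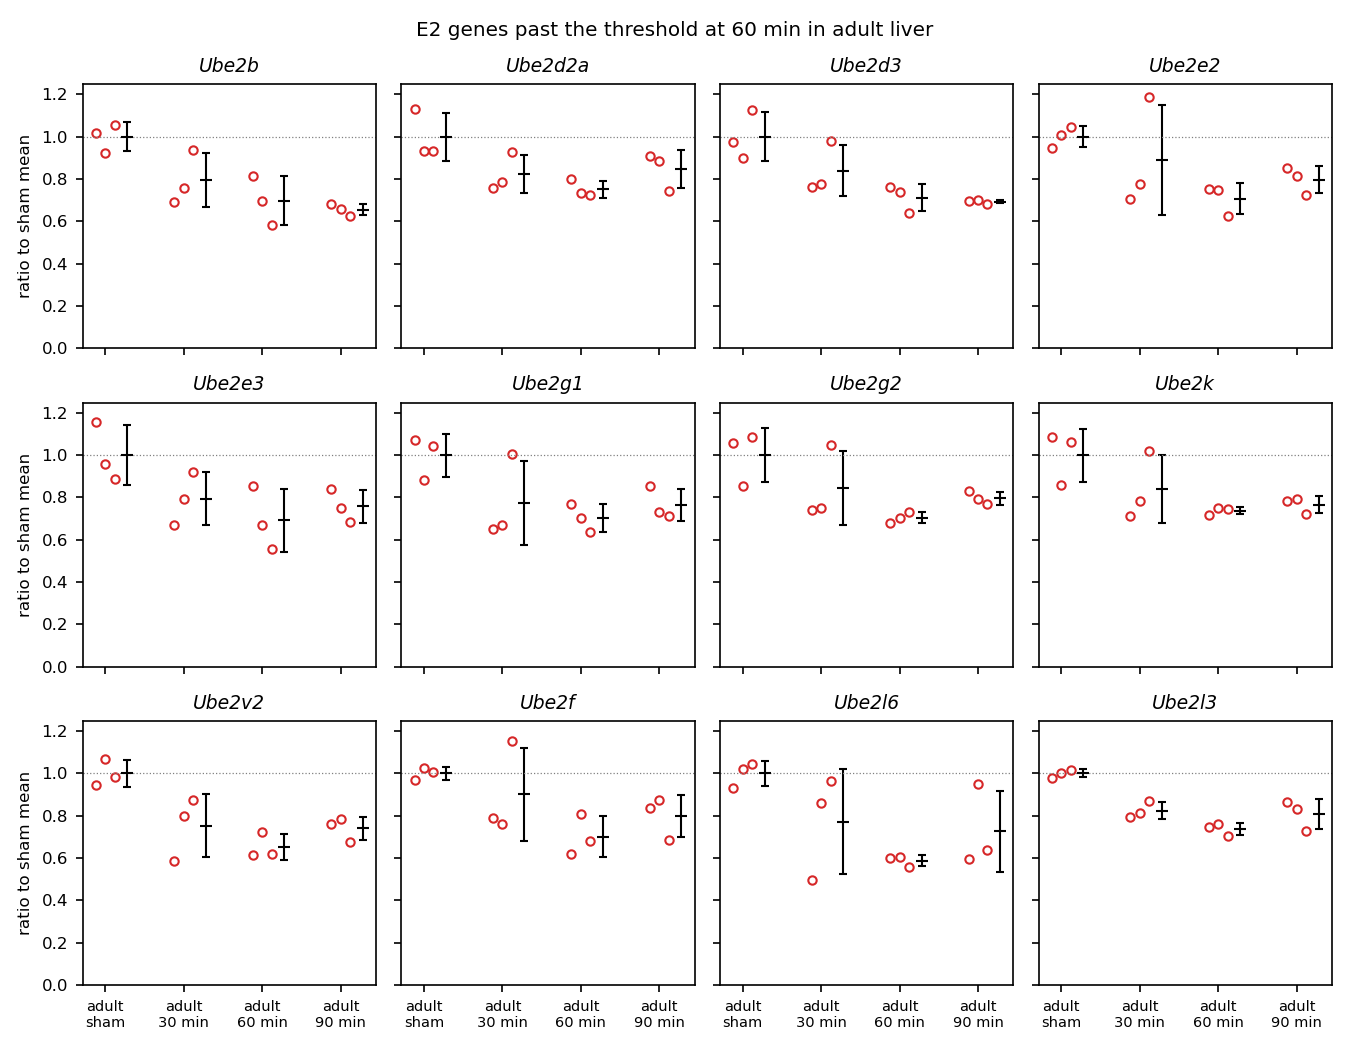
Ratio to the adult sham mean of the 12 E2 genes that fell at 60 min, in each adult array (open circles, replicates 1 to 3 from left to right), with the mean and SD of each group of 3 (bars). The dotted line is the sham mean of 1, and in every panel the 60 min arrays lie below the sham arrays.

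Of the cell division and DNA repair enzymes and the large or divergent E2 enzymes, 8 genes in all, 0 passed in adults. Ube2c and Ube2s start and extend the chains made by the anaphase-promoting complex, the ligase that ends mitosis. Adult Ube2c was at 0.992, 1.01 and 0.995 in sham arrays and between 1.11 and 1.29 in all 9 ischemia arrays, which lay above sham. Its changes of 0.25, 0.26 and 0.23 at 30, 60 and 90 min each had an SE of 0.24 and did not pass (adjusted p = 0.679, 0.462 and 0.535). That SE comes from the spread over all 8 groups, in which the young arrays of Ube2c were wide. Ube2o, a large enzyme that acts as E2 and E3 in 1 chain and clears unassembled proteins, was the member nearest to a rise. It was at 1.03, 1.06 and 0.909 in adult sham arrays, at 1.13, 1.33 and 1.22 after 60 min and at 1.24, 1.17 and 1.28 after 90 min. Both times were above sham without overlap, at 0.29 ± 0.10 and 0.30 ± 0.10 (adjusted p = 0.0511 and 0.0617). After median centring of the arrays Ube2o passed at 60 min, beside 8 genes that were lower. Ube2c and Ube2o were the only members above sham without overlap at 60 and at 90 min, where 11.1% and 12.8% of all genes were.

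The remaining members of this kind had small or scattered values at adult 60 min. Ube2q2 was at -0.50 ± 0.26, with 1 sham array at 0.731 among its ischemia values. Ube2q1, Ube2z, Ube2u, Ube2t and Ube2s were at -0.14, -0.17, -0.08, -0.03 and 0.00, and the arrays of each overlapped sham.

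The sequence before the start sites was looked at for letters shared by the genes that fell together. RefSeq windows (build GRCm38.p6) were found for 22 of the 28 genes, 8 of them among the 12 that fell, and the 250 bases before the most upstream start in the RefSeq promoter table were read. 6 motifs were searched on both strands, with overlaps allowed. A GC box (GGGCGG) was in 68.2% of the E2 windows and in 52.3% of 11387 windows of all genes, a CCAAT box in 31.8% and 36.3%, and the hypoxia response core (ACGTG) in 22.7% and 20%. The interferon-stimulated response element was in 0 of 22 windows and in 2.66% of all. A TATA box (TATAAA) was in 9.09% and 9%, and an ETS site (CCGGAAG) in 13.6% and 11%. GC content was higher than usual, at a median of 66.8% against 58.4%, with a median of 23 CpG dinucleotides against 13.

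Among the 8 genes that fell and had a window, a GC box was in 4, a CCAAT box in 3 and the hypoxia core, the ETS site and the TATA box in 1 each. No searched motif was thus common to the genes that fell. The windows of 4 of them are shown because they span the range: Ube2b and Ube2d3 passed at 60 and at 90 min, Ube2l3 had the lowest adjusted p and Ube2l6 the largest fall. Capitals mark the searched motifs, read on either strand.
Ube2b, chr11:52000787-52001036, minus strand: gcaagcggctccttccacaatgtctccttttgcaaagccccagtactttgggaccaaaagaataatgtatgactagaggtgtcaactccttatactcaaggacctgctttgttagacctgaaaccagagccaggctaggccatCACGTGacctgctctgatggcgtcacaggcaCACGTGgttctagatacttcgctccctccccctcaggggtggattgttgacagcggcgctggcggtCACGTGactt
Ube2d3, chr3:135437982-135438231, plus strand: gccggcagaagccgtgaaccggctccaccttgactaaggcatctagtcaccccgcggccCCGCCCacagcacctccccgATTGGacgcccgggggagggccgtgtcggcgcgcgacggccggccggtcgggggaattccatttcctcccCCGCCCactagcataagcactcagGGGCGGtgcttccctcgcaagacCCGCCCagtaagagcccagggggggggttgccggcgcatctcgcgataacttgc
Ube2l3, chr16:17201493-17201742, minus strand: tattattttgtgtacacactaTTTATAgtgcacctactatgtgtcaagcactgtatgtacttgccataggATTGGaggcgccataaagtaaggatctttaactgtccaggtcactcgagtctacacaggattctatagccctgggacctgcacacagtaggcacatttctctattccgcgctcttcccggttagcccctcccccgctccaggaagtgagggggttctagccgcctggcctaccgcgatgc
Ube2l6, chr2:84798578-84798827, plus strand: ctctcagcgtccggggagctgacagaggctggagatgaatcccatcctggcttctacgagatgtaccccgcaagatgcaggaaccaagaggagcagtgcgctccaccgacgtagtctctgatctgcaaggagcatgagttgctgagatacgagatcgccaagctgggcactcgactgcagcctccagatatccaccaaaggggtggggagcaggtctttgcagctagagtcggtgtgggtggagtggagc
Ube2b held 3 stretches in capitals, each a palindrome that reads as the hypoxia core on both strands. The annotated gene Ube2b reaches upstream past its whole window, so this window may not hold its main promoter. The annotated gene Ube2l3 reaches only into the part of its window next to the start. Ube2d3 held 5, of GC and CCAAT boxes, Ube2l3 held 2 and Ube2l6 none. These are matches of letters and not measured binding.

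After 90 min in adult liver, Ube2b and Ube2d3 fell and 0 E2 genes rose. That is 7.14% of the members, near the 7.45% of all genes that passed the 6.28% that passed as lower and the 1.17% that passed as higher. The median change of the 28 was -0.31, against -0.04 for all genes, and 23 were again below 0, where 56.5% of all genes were. Of the 12 genes that fell at 60 min, 11 had their 90 min arrays wholly below sham, Ube2l6 being the exception. The changes of the 12 at 90 min ran from -0.61 to -0.24. Both times were set against the same adult sham arrays, from which the 12 were partly picked, so this is no separate support. Over all members 14 of 28 were lower than sham without overlap, or 50%, where 26.4% of all genes were. At 60 min it had been 15 of 28, or 53.6%, where 25.9% of all genes were. Over all genes 901 were lower and 168 higher at 90 min, and 704 and 253 after median centring, which left the same E2 genes, Ube2b and Ube2d3. Single arrays also decided the 90 min count. It was 0 without adult sham replicate 3 or any 1 of the 90 min arrays, where 0.0488% to 1.85% of all genes passed. It was 1 without adult sham replicate 1 (Ube2d3), where 2.17% of all genes passed. It was 3 without adult sham replicate 2, when Ube2k joined and 5.62% of all genes passed. Quantile normalization and the adult arrays alone gave 0, where 0.0209% and 0.328% of all genes passed. A block by the title code's first part gave 5, as Ube2k, Ube2l3 and Ube2v2 joined, and 10.2% of all genes passed.

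No E2 gene passed after 30 min in adults, where 0 of all genes passed either. At an unadjusted p under 0.05, 9 of the 28 and 10.4% of all genes did. The median of the 28 was -0.20, against -0.03 for all genes, and 22 were below 0, where 57% of all genes were. Of the 28, 4 were lower than sham without overlap, namely Ube2v2, Ube2l3, Ube2d2a and Ube2q1, with changes of -0.43, -0.28, -0.28 and -0.20. This share of 14.3% stands beside 6.29% of all genes. Ube2c was higher without overlap, as 5.17% of all genes were. Replicate 3 differed from the others in most E2 genes. It was below the sham mean in 12 of 28 genes, whereas replicates 1 and 2 were each below it in 22. Without replicate 3 the median was -0.36 and Ube2g1 passed, while 0.620% of all genes did. The proteasome subunits, which degrade ubiquitin-tagged proteins, had replicate 3 above the other replicates too, at array medians of -0.48, -0.31 and 0.08.

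In young liver 0 E2 genes passed at 30, 60 or 90 min. Over all genes 0.0557%, 0.0279% and 0.181% did, so little passed in either. At an unadjusted p under 0.05 it was 5, 5 and 2 E2 genes, and 8.36%, 10.4% and 9% of all genes. Medians of the 28 were -0.08, -0.11 and -0.01, against -0.02 for all genes at each time, with 19, 20 and 17 below 0, where 56.6%, 55.3% and 57.6% of all genes were. The spread of the young sham arrays bears on these values: sham replicate 1 was below the mean in 23 of 28 E2 genes and replicate 3 in 5. The count was 0 with any 1 young array left out. The genes lower than sham without overlap at 30 min were Ube2b, Ube2d1, Ube2d3, Ube2e2 and Ube2g1, or 17.9% of members where 9.49% of all genes were. At 60 min they were Ube2b and Ube2d3 and at 90 min Ube2d3 and Ube2z, where 7.78% and 9.5% of all genes were.

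Ube2e2 and Ube2g1 at 30 min were the furthest below sham among young groups that did not overlap. Ube2e2 was at 0.896, 0.992 and 1.11 in young sham arrays and at 0.806, 0.788 and 0.703 after 30 min. Ube2g1 was at 0.825, 1.01 and 1.16 in young sham arrays and at 0.762, 0.786 and 0.741 after 30 min. In both, the sham arrays were spread more widely than the ischemia arrays. Changes of -0.38 ± 0.15 and -0.38 ± 0.14 did not pass (adjusted p = 0.435 and 0.442).

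Ube2s had the largest young change. It was at 0.782, 1.07 and 1.15 in young sham arrays, at 1.77, 1.03 and 1.09 after 30 min, at 1.94, 1.5 and 1.47 after 60 min and at 1.56, 1.10 and 1.01 after 90 min. Only the 60 min arrays were all above sham, and 30 and 90 min each held 1 high array. The 60 min value of 0.72 ± 0.20 did not pass (adjusted p = 0.226). Ube2c was at 1.07, 0.833 and 1.10 in young sham arrays, at 2.36, 1.08 and 1.09 after 30 min, at 1.85, 1.27 and 0.943 after 60 min and at 1.51, 1.69 and 1.14 after 90 min. The 30 min mean of 1.51 ± 0.737 (SD, n = 3) came from replicate 1, and only the 90 min arrays did not overlap sham (0.53 ± 0.24, adjusted p = 0.503). Markers of proliferating cells, 12 genes such as Cdc20, were also high in some of these arrays. Their mean ratio per array ran from 1.07 to 2.14 at young 30 min, 0.950 to 1.59 at 60 min and 1.11 to 1.89 at 90 min, against 0.859 to 1.19 in young sham liver. At each of these times 0 of the 12 passed, and their part in the Ube2c and Ube2s values was not tested.

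Over all members 1, 2 and 2 were above young sham without overlap at 30, 60 and 90 min, where 5.31%, 5.54% and 4.45% of all genes were. Ube2n was among them at 30 and 90 min. Ube2n was at 1.07, 1.06 and 0.867 in young sham arrays, at 1.18, 1.17 and 1.11 after 30 min, at 1.10, 1.05 and 0.961 after 60 min and at 1.30, 1.28 and 1.14 after 90 min. Its 30 and 90 min arrays were above sham and those of 60 min were not, with a change of 0.31 ± 0.16 at 90 min (adjusted p = 0.589).

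**Figure D3:**
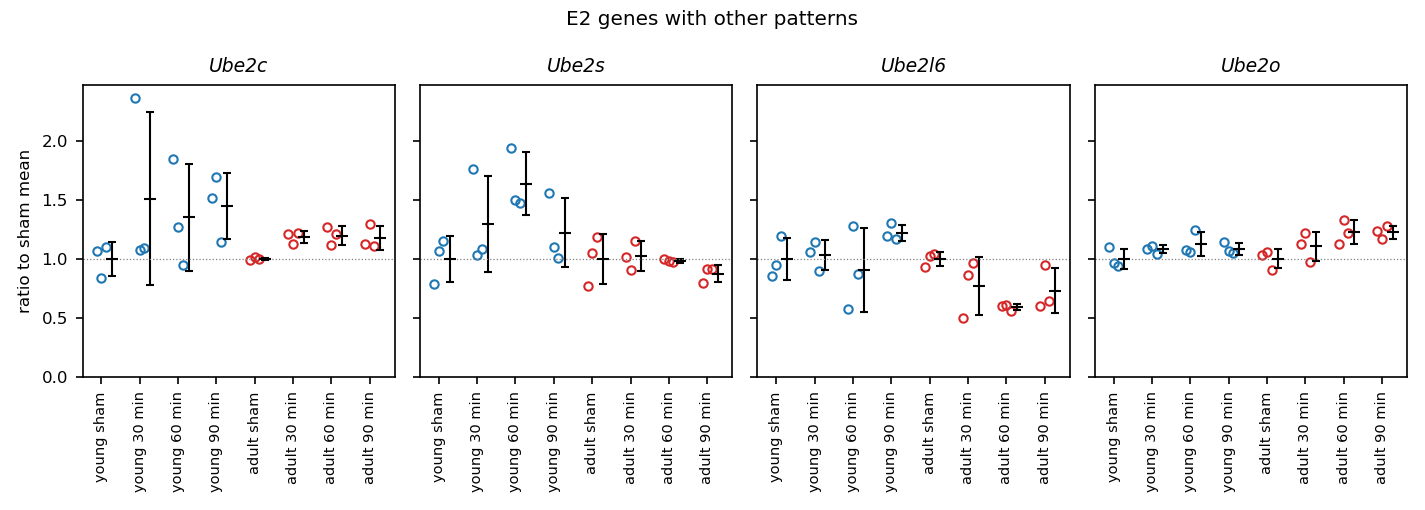
Ratio to the sham mean of the same age for Ube2c, Ube2s, Ube2l6 and Ube2o in each young (blue) and adult (red) array, with the mean and SD of each group of 3 (bars). Replicate 1 of young 30 min is high for Ube2c at 2.36 and Ube2s at 1.77, the adult 60 min arrays of Ube2l6 are low together, and Ube2o is above sham in adults at 60 and 90 min.

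Whether adults responded differently from young mice was tested as the difference of the 2 responses. No E2 gene passed at 30, 60 or 90 min, and 0 of all genes did. At an unadjusted p under 0.05 it was 0, 4 and 2 members, and 2.1%, 6.81% and 11.2% of all genes. The adult change was the lower one in 21, 24 and 25 of the 28 E2 genes at 30, 60 and 90 min, where 50.7%, 59.4% and 53.6% of all genes were on that side. So the falls that passed in adults were not shown to differ from the young values. At 60 min the difference was -0.72 for Ube2s (95% confidence interval -1.32 to -0.12), -0.54 for Ube2f (-1.0 to -0.08), -0.49 for Ube2g2 (-0.90 to -0.08) and -0.35 for Ube2l3 (-0.63 to -0.06), all with an adjusted p of 0.704. At 90 min it was -0.79 for Ube2l6 (-1.5 to -0.08, adjusted p = 0.439). For Ube2b and Ube2d3 it was -0.26 (-0.66 to 0.15) and -0.20 (-0.55 to 0.14) at 60 min.

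**Figure D4:**
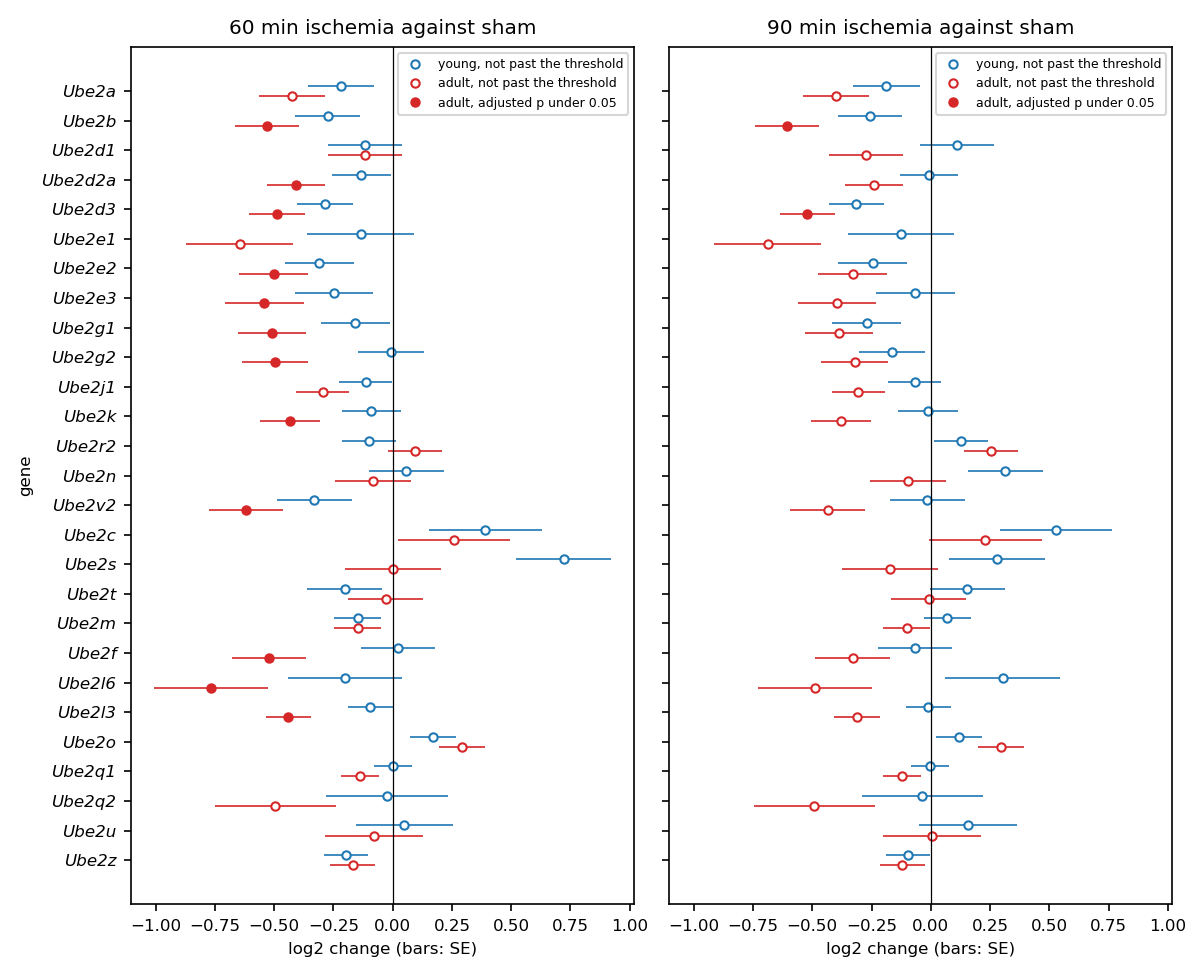
Log2 change against sham of the same age for 27 of the 28 E2 genes (rows) in young (blue) and adult (red) liver at 60 min (left) and 90 min (right), with bars of 1 SE. Filled points passed at an adjusted p under 0.05: 12 at 60 min and 2 at 90 min, all in adults, while 0 young points did.

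The order of the groups was described from the group means. In adults sham was the highest of the 4 groups in 21 of 28 genes and 60 min the lowest in 15. In young mice sham was the highest in 14, and the lowest mean was at 30 min in 11 genes, at 60 min in 9 and at 90 min in 2. Between neighbouring ischemia times, 30 and 60 or 60 and 90 min, 0 E2 genes and 0 of all genes passed in either age. At an unadjusted p under 0.05 it was 1 and 4 members in young mice, with 5.16% and 9.33% of all genes, and 1 and 0 in adults, with 8.78% and 3.19%. At adult 60 min Ube2d3, Ube2g2 and Ube2l3 were below their 30 min arrays without overlap, with changes of -0.23, -0.25 and -0.16 (adjusted p = 0.563, 0.578 and 0.587), where 8.06% of all genes were. From 60 to 90 min Ube2g2 was higher without overlap, at 0.18 with a 95% confidence interval from -0.11 to 0.47, where 5.53% of all genes were. Ube2s was lower without overlap in that step, at 0.793 to 0.916 at 90 min against 0.972 to 1.00 at 60 min. The share of all genes on that side is not given here. In young mice Ube2m, Ube2n and Ube2v2 were higher at 90 than at 60 min without overlap, at 0.22, 0.26 and 0.32, where 7.09% of all genes were.

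The steps before and after the E2 enzymes were counted from lists chosen by function. At adult 60 min 2 of 7 genes for ubiquitin and its relatives fell, Sumo3 by 0.65 and Ufm1 by 0.54. Of the E1 enzymes 2 of 9 fell, Uba3 of the NEDD8 pathway by 0.66 and Uba2 of the SUMO pathway by 0.61. Genes with an E2 fold but another name fell in 4 of 8 cases, among them Tsg101, an inactive E2 relative in endosomal sorting, by 0.54, Ufc1 by 0.47 and Cdc34 by 0.38. Of the E3 ligases 7 of 66 fell, or 10.6%, near the 9.78% of all genes, among them the cullin adaptor Skp1 by 0.67 and the scaffold Cul4b by 0.59.

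Downstream, 11 of 53 deubiquitinases fell at adult 60 min, among them Usp33 by 0.89 and the proteasome-bound Uchl5 by 0.73. Proteasome subunits fell in 21 of 43 cases, Psma1 by 0.86, Psmd7 by 0.79 and Psmc6 by 0.79, with a median of -0.55. None of these genes rose. At 90 min the counts were 0 of 7, 0 of 9, 0 of 8, 6 of 66 and 6 of 53 in the same order, and 18 of 43 proteasome subunits, whose median was -0.54. Of all genes 6.28% passed as lower at that time. The proteasome thus had nearly the same count at both times, whereas the E2 count was 12 and then 2. That difference between the lists was not tested. The E2 values moved less than this count, with a median of -0.42 at 60 min and -0.31 at 90 min. Of the 28 members 15 and then 14 were lower than sham without overlap, where 25.9% and 26.4% of all genes were.

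**Figure D5:**
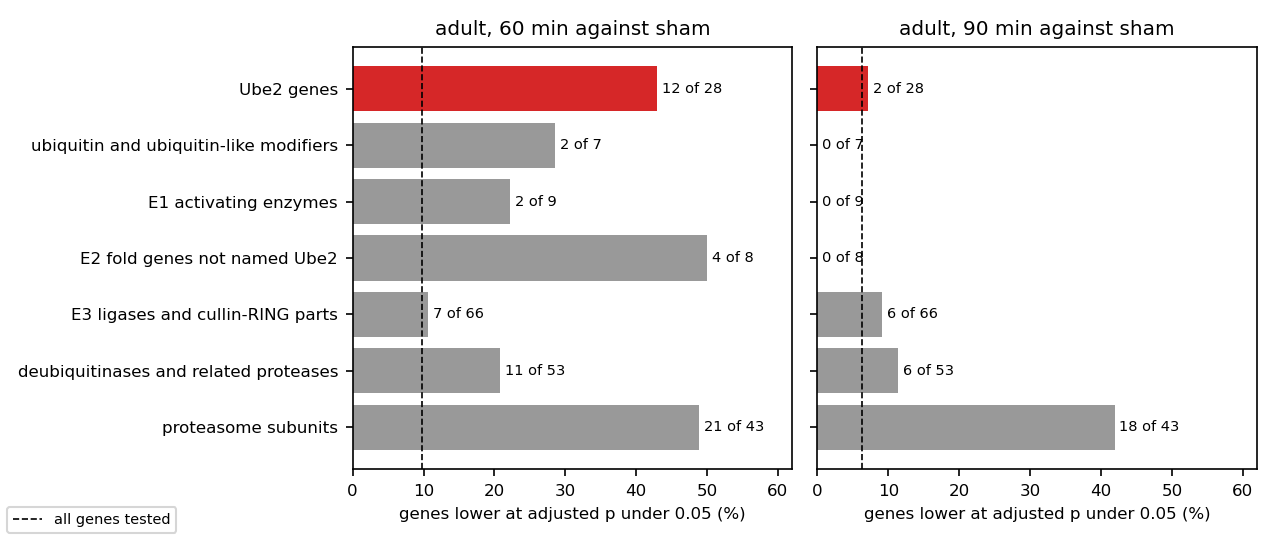
Percent of each list that was lower than sham at an adjusted p under 0.05 in adult liver at 60 min (left) and 90 min (right), with the counts beside the bars. The dashed line marks all genes tested, at 9.78% and 6.28%: E2 genes are at 42.9% and 7.14%, and proteasome subunits at 48.8% and 41.9%.

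Markers of several cell types differed from sham on the same arrays. Hepatocyte markers had a median of -0.28 at adult 60 min with 13 of 14 below 0 and 1 passing, and mean ratios per array of 0.695 to 0.924 against 0.971 to 1.03 in adult sham liver. Markers of Kupffer cells, the resident macrophages, had a median of -0.54 at 60 min with 1 of 12 lower and of -1.23 at 90 min with 11 of 12 lower. Their mean ratio per array was 0.507 to 0.866 at 60 min and 0.322 to 0.50 at 90 min, against 0.746 to 1.45 in adult sham liver. Endothelial markers were also below sham at adult 60 min, at 0.779 to 0.929 against 0.950 to 1.05 (0 of 12 passing), and markers of T and NK cells above it, at 1.04 to 1.22 against 0.970 to 1.04 (0 of 11 passing). Kupffer cell, stellate cell, neutrophil, cholangiocyte, red cell and proliferation markers overlapped sham there. In young liver at 60 min the mean ratios of Kupffer, stellate and endothelial markers were below those of sham, at 0.563 to 0.799, 0.711 to 0.843 and 0.787 to 0.833, with 0 genes of these lists passing. The part of these cell types in the E2 values was not tested.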

How the data were processed

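The labels describe Affymetrix 3' arrays of labelled liver RNA, and the submitters' processing notes name RMA, with no version. The deposited values are linear ratios for 26180 probe sets, scaled so that each age's 3 sham ratios average 1 within 2e-07. The scaling step itself, the probe annotation and the genome build are not given in the sources used here. Of the probe sets, 15228 carried an accession that the RefSeq table pairs with 1 symbol and 10952 did not. Where a gene had several, NM accessions came before NR and predicted ones, then the lowest number. No low value was filtered, as brightness is not kept.

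The model of 8 group means was run on log2 ratios of all 14351 genes with limma 3.58.1 under R 4.3.3 (residual degrees of freedom 16, prior 4.53), after tests on simulated data. Each of 13 comparisons was adjusted by Benjamini-Hochberg over all genes, two-sided, and an adjusted p under 0.05 passed. All E2 genes enter the counts and medians, and 1 is not reported here by name; those past the threshold, and up to 3 per comparison with the largest change among groups that do not overlap, are given by array. Of each list up to 3 genes that passed are named. Members and lists were chosen with earlier results of these data known. Replicate numbers follow sample order and were not used as pairs; the first part of the code in the titles, which ties arrays across groups of an age, was used as a block in an alternative. Alternatives were median centring, quantile normalization, every probe set, this block, log2(ratio + 1), 1 age only and each array left out.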

Additional observations from a re-analysis of the deposited data

How the results depend on the processing

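With 3 arrays per group and adjusted p-values close to 0.05, counts of E2 genes moved with the processing. The 12 genes at adult 60 min and the 2 at adult 90 min stayed below 0 in every alternative. Their groups did not overlap, so leaving out an array or using log2(ratio + 1) could not have changed that sign. At 60 min 7 of the 15 members other than these 12 and Ube2e1 changed sign in at least 1 alternative. The 12 were picked by their fall, so these results cannot be set against each other. At adult 60 min the 12 E2 genes became 9 with arrays centred on their median (8 lower and Ube2o higher), 11 with a block by the title code's first part, 10 on log2(ratio + 1) and 12 with every probe set. In the same order 9.23%, 11.9%, 9.06% and 11.8% of all genes passed, against 11.9% in the main fit. The E2 count became 0 after quantile normalization, when 0 of all genes passed and the 12 genes lay between -0.50 and -0.21. It was 4 in adult arrays alone, where 4.09% of all genes passed. With 1 array left out the count ran from 0 to 10, and the share of all genes from 0.00697% to 15.2%. At adult 90 min the 2 became 0 after quantile normalization, 0 in adult arrays alone, 5 with the title code block and 0 to 3 with 1 array left out. Of all genes 0.0209%, 0.328%, 10.2% and 0.0488% to 5.62% passed there, in the same order. At adult 30 min the 0 ran from 0 to 1. The other 10 comparisons stayed at 0 in every alternative. A fit with 1 age or fewer arrays has fewer degrees of freedom; the cause of the quantile result was not tested. Replicate numbers come from the order of the samples, so the block by title code, whose first part is shared by arrays of different groups within an age, stands for the pairing. What that code marks is not stated in the labels.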
